A study of Mus musculus with 17 samples.

Results

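Fibroblast growth factor (FGF) signalling was followed through 10 genes of the pathway, out of 23891 gene symbols in the tables: the ligand Fgf4, the receptors Fgfr1, Fgfr2, Fgfr3 and Fgfr4, the feedback inhibitors Spry2, Spry4, Spred1 and Dusp6, and the transcription factor Etv4. The genes were chosen by name, all 10 were found, and together they had 18 RefSeq transcripts of 32661 that are listed once. Each gene is given by the transcript with the highest mean level over the 17 RNA-seq libraries. Levels are FPKM, fragments per kilobase of transcript scaled between libraries by upper-quartile normalization, so they are per length. Between genes, they compare 1 transcript of each. Genes with further transcripts (Fgfr1, Fgfr2, Fgfr3 and Spred1) are therefore understated against the others.

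The libraries came from 6 mouse cell types. Spermatogonial stem and progenitor cells (SSCs), grown from testes of adult mice, are the germline stem cells of the male. Multipotent adult spermatogonial-derived stem cells (MASCs) are the lines that SSC cultures convert to in vitro, and the study asked how close they come to embryonic stem cells (ESCs). The 4 SSC lines were of strain Oct4-GFP (SSC.1 and SSC.2), C57Bl/6J (SSC.3) and 129mix (SSC.4), and the 6 MASC lines were Oct4-GFP (MASC.1 and MASC.2), 129mix (MASC.3 and MASC.4) and Gt(ROSA26)Sor-lacZ (MASC.5 and MASC.6). ESC.1 was Oct4-GFP and ESC.2 was 129mix. The induced pluripotent stem (iPS) lines iPS.1 and iPS.2 (129mix) were made from E13.5 embryonic fibroblasts that carry H3.3B-HA and the doxycycline-driven 4-factor cassette tetO-4F2A, with doxycycline at 2 µg/ml. HSC.1 and HSC.2 were lineage-depleted C57Bl/6J bone marrow cells expanded on human endothelial feeders (E4ORF1-HUVECs) with soluble Kit ligand at 10 ng/ml. The only mouse embryonic fibroblast library (MEF) was 129mix, from E13.5 embryos with H3.3B-HA. SSC medium held basic FGF (the product of Fgf2) at 10 ng/ml with GDNF at 10 ng/ml and EGF at 20 ng/ml, whereas the medium of MASCs, ESCs and iPS cells held LIF at 1000 U/ml and listed no FGF. All 4 of these cell types were grown on fibroblast feeders, and cell type and medium cannot be told apart.

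FGF ligands bind receptor tyrosine kinases together with heparan sulphate, and the activated receptor signals through adaptors, Ras and the kinases Mek and Erk. Erk signalling raises transcription of Etv4, Etv5, Spry, Spred and Dusp6 genes. Sprouty and Spred proteins inhibit the Ras-Erk cascade, and the phosphatase Dusp6 inactivates Erk, so these genes are both targets and brakes of the pathway. In ESCs, autocrine Fgf4 is known for moving the cells towards differentiation. In the testis, FGF and GDNF sustain SSC self-renewal, with Etv5 among the target genes.

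Between 13532 and 16272 transcripts per library reached 1 FPKM. A level of 1 FPKM stood for 1.26 reads per base of coverage in the shallowest library (HSC.2) and 3.23 in the deepest (iPS.1). For values of at least 5 FPKM of the 10 genes, the half-width of the interval that Cufflinks gives was 1.61% to 10.8% of the value, which covers counting and assignment of reads but not differences between lines. Cell type markers mostly went with the labels. All 10 spermatogonial markers were at 1 FPKM or more in each SSC line, and all 10 haematopoietic markers in both HSC cultures. All 9 pluripotency markers were so in each MASC, ESC and iPS line. In SSCs, 5 to 7 of these 9 also reached 1 FPKM, but their sum was 50.1 to 196 FPKM against 3314 to 4848 in MASCs. In MASCs, 3 to 7 spermatogonial markers did, with a sum of 74.7 to 107 FPKM against 813 to 949 in SSCs. Somatic testis markers summed to 24.0 to 29.9 FPKM in SSCs and 6.08 to 15.6 in MASCs. The highest haematopoietic markers in both HSC cultures were Cma1 and the mast cell protease gene Cpa3. In HSC.1 and HSC.2, Cma1 was at 12145 and 6539 FPKM and Cpa3 at 10252 and 6795 FPKM. The sums over all 10 markers were 25691 and 14350 FPKM. This marker list therefore does not tell stem and progenitor cells from mast cells in these cultures. SSC.1 held the pluripotency gene Pou5f1 at 94.5 FPKM, against 1.37 to 5.42 in the other SSC lines. Markers of fibroblasts, which would include feeder cells, summed over 15 genes to 9118 FPKM in MEF, with Col1a1 listed at 0 there, and to 64.0 to 1692 in SSCs, 127 to 2244 in MASCs, 139 to 818 in ESCs, 54.0 to 532 in iPS lines and 9.55 to 823 in HSC cultures. MASC.1, SSC.3, HSC.2, ESC.1 and SSC.1 had the most outside MEF, and SSC.2 had the least of the SSC lines. In such bulk libraries, fewer cells of a type and less RNA per cell cannot be told apart.

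Converted lines and SSCs differed most at the ligand. Fgf4, a secreted growth factor of the early embryo, was at 61.5, 45.7, 76.5, 67.9, 67.9 and 68.9 FPKM in MASC.1 to MASC.6. In SSC.1 to SSC.4 it was at 0.0128, 0.0125, 0.101 and 0.00418 FPKM. ESC.1 and ESC.2 had 59.5 and 72.2 FPKM, and iPS.1 and iPS.2 had 86.9 and 53.4 FPKM. HSC.1, HSC.2 and MEF had 0.0540, 0.0817 and 0.0213 FPKM. Every line grown in LIF medium was therefore high and every other library near 0, with no value between 0.101 and 45.7 FPKM. Only in SSC.3, HSC.1 and HSC.2 of the 7 low libraries was the lower bound that Cufflinks gives for Fgf4 above 0. SSC.1, the SSC line with the most Pou5f1, was among the low Fgf4 libraries.

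Fgf4 (NM_010202) lies on the forward strand of chromosome 7, at chr7:152047291-152051148 of mm9, the build of the tables. The 250 bases before its start are shown because it was the only 1 of the 10 genes to go from near absence to a high level. They are from RefSeq on build GRCm38.p6, chr7:144861136-144861385, with CpG dinucleotides in capitals.
Fgf4: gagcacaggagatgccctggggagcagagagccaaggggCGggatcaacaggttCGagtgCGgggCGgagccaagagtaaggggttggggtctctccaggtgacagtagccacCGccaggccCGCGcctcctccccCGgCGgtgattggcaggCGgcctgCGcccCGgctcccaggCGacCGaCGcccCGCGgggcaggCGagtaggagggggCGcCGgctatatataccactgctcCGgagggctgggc

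This stretch held 21 CpG dinucleotides, more than 83.7% of the 32851 promoters of the table, whose median was 6.

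**Figure D1:**
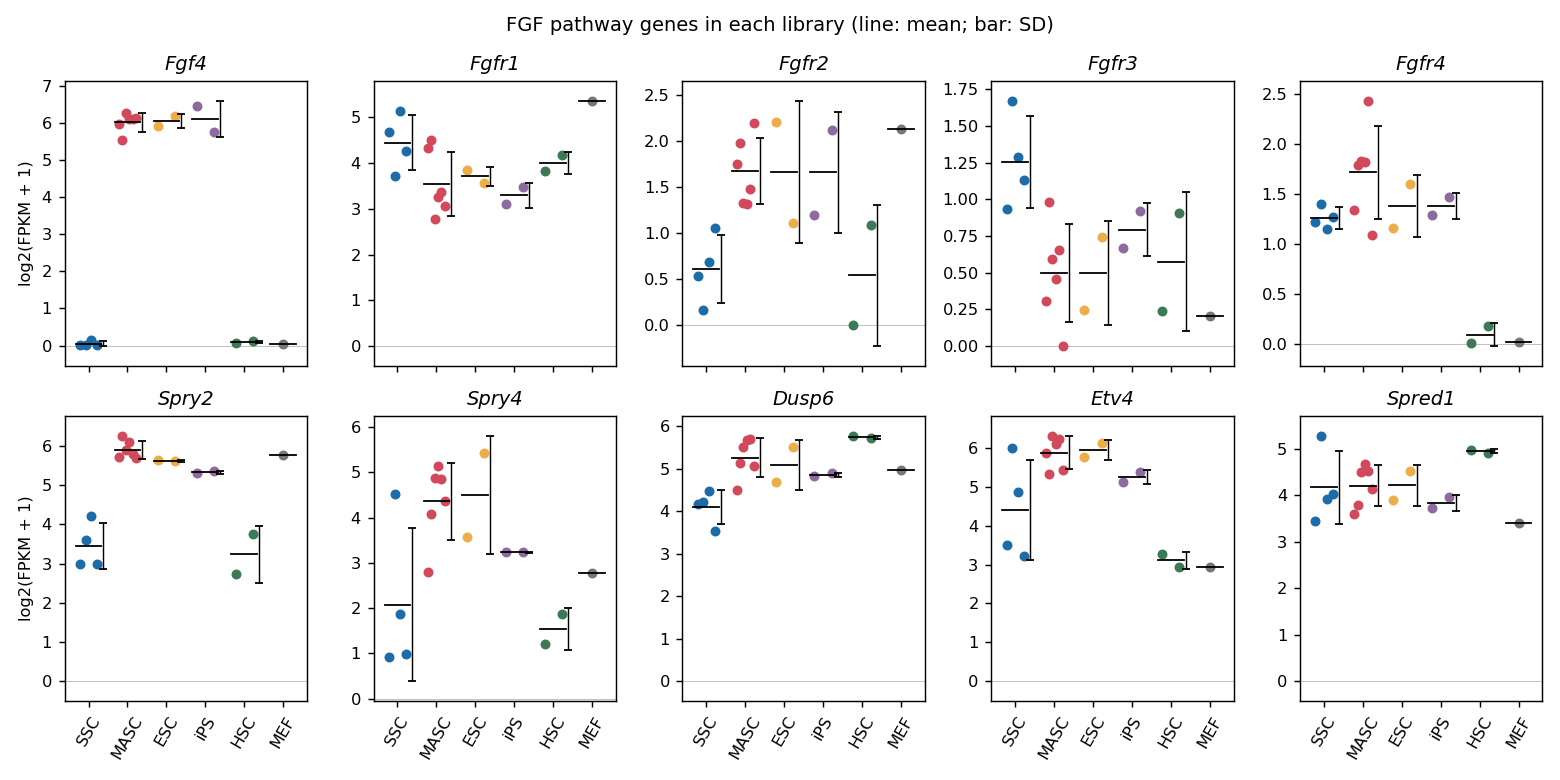
Level of each of the 10 genes in each library, as log2(FPKM + 1) on the vertical axis, with a scale of its own for each gene. Points are libraries, the horizontal line is the mean of a cell type and the bar its SD (no bar for MEF, 1 library); Fgf4 splits into libraries above 45.7 FPKM and libraries below 0.102 FPKM, while the other genes have intermediate values.

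MASC and SSC lines were compared with limma on log2(FPKM + 1), fitted to the 12 libraries of SSCs, MASCs and ESCs, where a call is a Benjamini-Hochberg adjusted p under 0.05 over all 32661 transcripts. Of the 10 genes, 4 were higher in MASCs (Fgf4, Spry2, Dusp6 and Fgfr2) and 1 was lower (Fgfr3), and 5 were not called (Spry4, Etv4, Fgfr1, Fgfr4 and Spred1). Over all transcripts, 11.4% were higher and 19.5% were lower. The median difference over the 10 genes was 1.11 and that over all transcripts was -0.0048. In this comparison Fgf4 differed by 5.98 ± 0.13 (log2, SE; adjusted p = 4.4e-09), a difference that the added 1 FPKM makes smaller than the ratio of the levels. Leaving out each of the 10 lines in turn gave 5.92 to 6.07. Replicates are labelled as separate samples, some of the same strain, and the p-values measure the spread between these samples, which may in part be technical.

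Among the feedback inhibitors, Spry2 showed the clearest separation. It was at 51.1, 75.6, 58.3, 67.0, 54.0 and 50.9 FPKM in MASC.1 to MASC.6, and at 6.88, 11.1, 17.5 and 6.87 FPKM in SSC.1 to SSC.4. No SSC line came near the MASC range, and the difference was 2.46 ± 0.24 (log2, SE; adjusted p = 4.9e-05), a 5.52-fold difference on the log2(FPKM + 1) scale. ESC.1 and ESC.2 had 49.0 and 47.8 FPKM and iPS.1 and iPS.2 had 38.5 and 39.8 FPKM, just below the MASC lines. MEF, however, had 53.0 FPKM, the same level as MASCs, while HSC.1 and HSC.2 had 5.60 and 12.4 FPKM. SSC.3, with the highest Spry2 of the SSC lines, was also the SSC line with the highest fibroblast marker sum. The sums in SSC.1 to SSC.4 were 718, 64.0, 1692 and 172 FPKM. SSC.2, with the lowest sum, had more Spry2 than SSC.1 and SSC.4. Without the SSC, MASC and ESC lines among the 5 libraries richest in fibroblast markers, the difference in Spry2 was 2.66 (adjusted p = 0.0011).

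Dusp6, the Erk phosphatase, was at 21.8, 33.9, 44.7, 49.9, 50.7 and 32.7 FPKM in MASC.1 to MASC.6 and at 17.03, 17.5, 21.4 and 10.6 FPKM in SSC.1 to SSC.4. The ranges just failed to overlap, with MASC.1 at 21.8 FPKM beside SSC.3 at 21.4 FPKM, and the difference was 1.16 ± 0.29 (log2, SE; adjusted p = 0.012). It was 1.54 (adjusted p = 0.012) without the fibroblast-rich lines, but with strain as a block it was 1.17 (adjusted p = 0.052). The strains differ in which cell types they cover, since C57Bl/6J has no MASC line and Gt(ROSA26)Sor-lacZ has no SSC line.

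Spry2 (NM_011897) is at chr14:106291164-106296036 and Dusp6 (NM_026268) at chr10:98725865-98730123 of mm9. The 250 bases before the start of both genes are shown, since both were called higher in MASCs together with Fgf4. They are from RefSeq, GRCm38.p6, chr14:105896820-105897069 on the reverse strand for Spry2 and chr10:99262981-99263230 on the forward strand for Dusp6, with CpG dinucleotides in capitals.
Spry2: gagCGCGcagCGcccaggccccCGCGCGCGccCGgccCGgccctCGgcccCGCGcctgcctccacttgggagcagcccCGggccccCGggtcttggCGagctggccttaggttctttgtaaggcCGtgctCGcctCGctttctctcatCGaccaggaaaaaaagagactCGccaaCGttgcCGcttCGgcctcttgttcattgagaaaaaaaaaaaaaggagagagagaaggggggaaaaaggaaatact
Dusp6: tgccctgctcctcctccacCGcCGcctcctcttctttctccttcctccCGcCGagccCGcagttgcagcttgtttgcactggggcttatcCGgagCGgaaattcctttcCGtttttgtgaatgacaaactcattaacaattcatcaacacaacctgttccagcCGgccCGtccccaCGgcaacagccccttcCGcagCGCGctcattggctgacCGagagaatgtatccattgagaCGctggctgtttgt

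The Spry2 stretch held 23 CpG dinucleotides and the Dusp6 stretch 16, more than 86.7% and 74.6% of promoters. Promoter sequences from 250 bases before to 50 bases after the start were found for 7 of the 10 genes, all but Fgfr1, Spry4 and Etv4. No exact match on either strand to CCGGAAGT (an ETS site), ATGCAAAT (the octamer), TGACGTCA (a cyclic AMP response element) or GGGGCGGGG (a GC box) was found in any of them. Over all 32851 promoters of the same length, 3.89% held the first, 1.74% the second, 1.79% the third and 11.4% the fourth.

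Etv4 and Spry4 were higher in most MASC lines, but 1 SSC line stood with the MASCs. Etv4, an ETS transcription factor, was at 58.0, 39.3, 78.6, 67.5, 73.7 and 42.1 FPKM in MASC.1 to MASC.6. It was at 10.4, 62.4, 28.3 and 8.34 FPKM in SSC.1 to SSC.4. SSC.2 thus lay within the MASC range and the other 3 SSC lines lay below it. The difference was 1.48 ± 0.51 (log2, SE; adjusted p = 0.0505), and without SSC.2 it was 2.01 (adjusted p = 0.0040). Spry4, a second Sprouty inhibitor, was at 6.00, 16.0, 28.5, 34.0, 28.0 and 19.7 FPKM in MASC.1 to MASC.6. Its levels in SSC.1 to SSC.4 were 0.903, 22.1, 2.68 and 0.970 FPKM. Again SSC.2 was inside the MASC range and the other SSC lines were below it. The difference was 2.28 ± 0.78 (log2, SE; adjusted p = 0.051), and 3.09 (adjusted p = 0.0040) without SSC.2. Without the fibroblast-rich lines, which leaves SSC.2 and SSC.4, Etv4 differed by 1.27 (adjusted p = 0.31) and Spry4 by 1.91 (adjusted p = 0.22).

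Spred1, which also restrains Ras-Erk signalling, did not follow the ligand. Its level was 11.04, 12.8, 21.5, 24.6, 22.05 and 16.6 FPKM in MASC.1 to MASC.6 and 9.95, 37.9, 14.2 and 15.4 FPKM in SSC.1 to SSC.4. These values are for the leading transcript, NM_033524. A second transcript, NM_001277256, held 24.7% and 34.7% of Spred1 in SSC.1 and SSC.3. Summed over both, SSC.1 to SSC.4 had 13.2, 38.2, 21.7 and 15.8 FPKM, against 13.4 to 24.8 FPKM in MASCs. For the leading transcript, SSC.2 had the highest Spred1 of all 17 libraries and the other SSC lines lay at or below the middle of the MASC range. The difference was 0.03 ± 0.36 (log2, SE; 95% interval -0.78 to 0.84, adjusted p = 1), and it changed sign when single lines were left out, from -0.21 to 0.40.

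SSC.2 was the highest SSC line in 9 of 18 further feedback inhibitors and Erk targets, the lowest in 2 and neither in 7. Those 7 include Spry3, which was at 0 FPKM in every library. SSC.3, for comparison, was the highest in 5 of these genes. Among the 10 members, SSC.2 was the highest SSC line in 5 and SSC.3 in 4. How often each line is the highest over all transcripts was not taken. These counts therefore cannot be called particular to Erk targets. Etv5, the ETS factor that SSCs need for self-renewal, was at 123 FPKM in SSC.2 against 17.2, 45.0 and 11.4 FPKM in SSC.1, SSC.3 and SSC.4, and at 81.1 to 128 FPKM in MASCs. Dusp9, another Erk phosphatase, was at 105 FPKM in SSC.2 against 13.2 to 24.8 FPKM in the other SSC lines. Il17rd, an FGF receptor inhibitor also called Sef, was at 27.7 FPKM in SSC.2, above the 4.43 to 11.3 FPKM of the other SSC lines and the 4.66 to 9.67 FPKM of MASCs. The genes lowest in SSC.2 were Etv1, at 0.0511 against 0.328 to 0.401 FPKM in the other SSC lines, and the phosphatase gene Dusp1, at 16.8 against 35.97 to 52.7 FPKM. In Spry2 and Dusp6, by contrast, SSC.2 was inside the range of the other SSC lines, and its Fgf4 was at 0.0125 FPKM. Il17rd, Spred2, Dusp1 and SSC.2 were singled out after their values were seen. SSC cultures were plated on gelatin before collection to take out feeder cells, per the methods. SSC.2 had the lowest fibroblast marker sum of the SSC lines, and the part of feeder RNA in its levels was not tested.

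**Figure D2:**
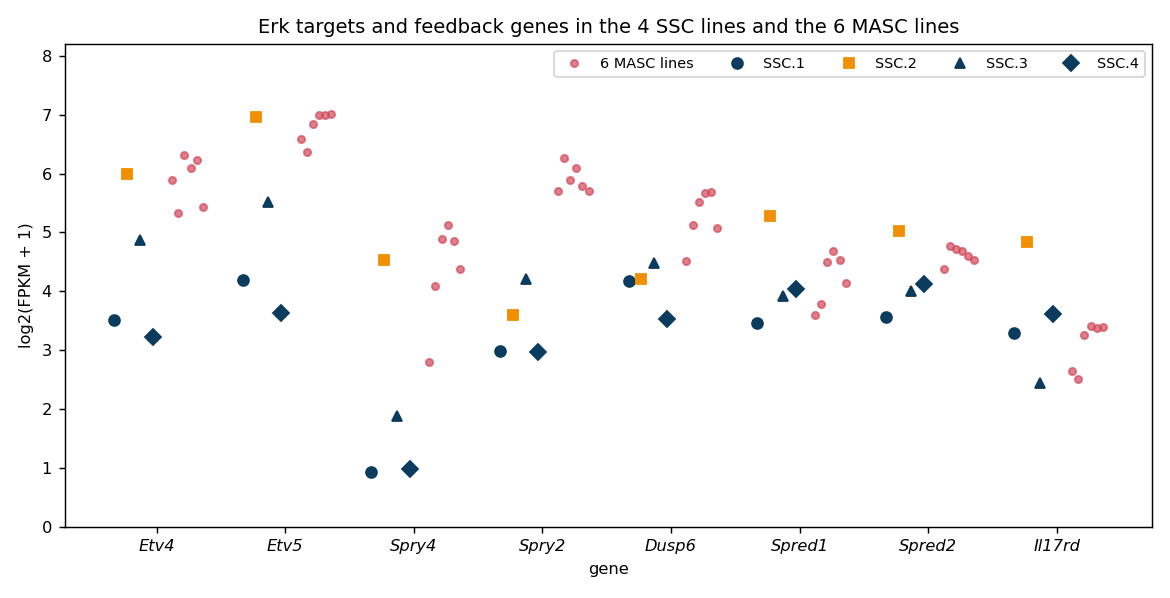
Levels of 8 Erk target and feedback genes as log2(FPKM + 1) in the 4 SSC lines (left in each column, 1 symbol per line, SSC.2 in orange) and the 6 MASC lines (red, right in each column). SSC.2 lies at the MASC level in Etv4, Etv5 and Spry4 and above the other SSC lines in Spred1, Spred2 and Il17rd, but among the other SSC lines in Spry2 and Dusp6.

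The 4 receptors did not move together. Fgfr1, which binds both Fgf2 and Fgf4, was the most abundant receptor in every library. Its leading transcript NM_001079908 was at 24.6, 12.1, 34.2 and 18.2 FPKM in SSC.1 to SSC.4, and at 19.0, 21.5, 5.86, 8.55, 9.26 and 7.31 FPKM in MASC.1 to MASC.6. SSC levels were mostly the higher ones, yet MASC.1 and MASC.2 overlapped with them, and the difference was -0.90 ± 0.40 (log2, SE; adjusted p = 0.12). MEF had 40.2 FPKM, the highest of all, so this receptor is also high in the feeder cell type, and without the fibroblast-rich lines the difference was -0.60 (adjusted p = 0.47).

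Fgfr2, at low level throughout, was at 2.37, 2.94, 1.51, 1.497, 1.79 and 3.58 FPKM in MASC.1 to MASC.6 and at 0.446, 0.124, 0.612 and 1.07 FPKM in SSC.1 to SSC.4. Each MASC line was above each SSC line, and the difference was 1.07 ± 0.27 (log2, SE; adjusted p = 0.013). MEF had 3.37 FPKM, and the call was lost without the fibroblast-rich lines (1.05, adjusted p = 0.094) and with strain as a block (1.06, adjusted p = 0.074). Fgfr3, the receptor called lower in MASCs, was at 0.910, 2.19, 1.44 and 1.19 FPKM in SSC.1 to SSC.4 and at 0.239, 0.978, 0.507, 0.376, 0.573 and near 0 FPKM in MASC.1 to MASC.6. Only MASC.2 reached the lowest SSC line, and the difference was -0.76 ± 0.21 (log2, SE; adjusted p = 0.019). It was not called without SSC.2 (-0.62, adjusted p = 0.054), without the fibroblast-rich lines (-0.86, adjusted p = 0.086) or with strain as a block (-0.66, adjusted p = 0.14). Fgfr3 has 5 transcripts in the tables, and summed over them its level was 3.13 to 5.25 FPKM in SSCs and 1.06 to 2.36 FPKM in MASCs, ranges that did not overlap, with a difference of -1.16 (adjusted p = 5.0e-04). Fgfr4 was at 1.54, 2.44, 2.55, 2.54, 4.39 and 1.13 FPKM in MASC.1 to MASC.6 and at 1.32, 1.64, 1.22 and 1.41 FPKM in SSC.1 to SSC.4. The difference was 0.46 ± 0.23 (log2, SE; 95% interval -0.06 to 0.97, adjusted p = 0.17).

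**Figure D3:**
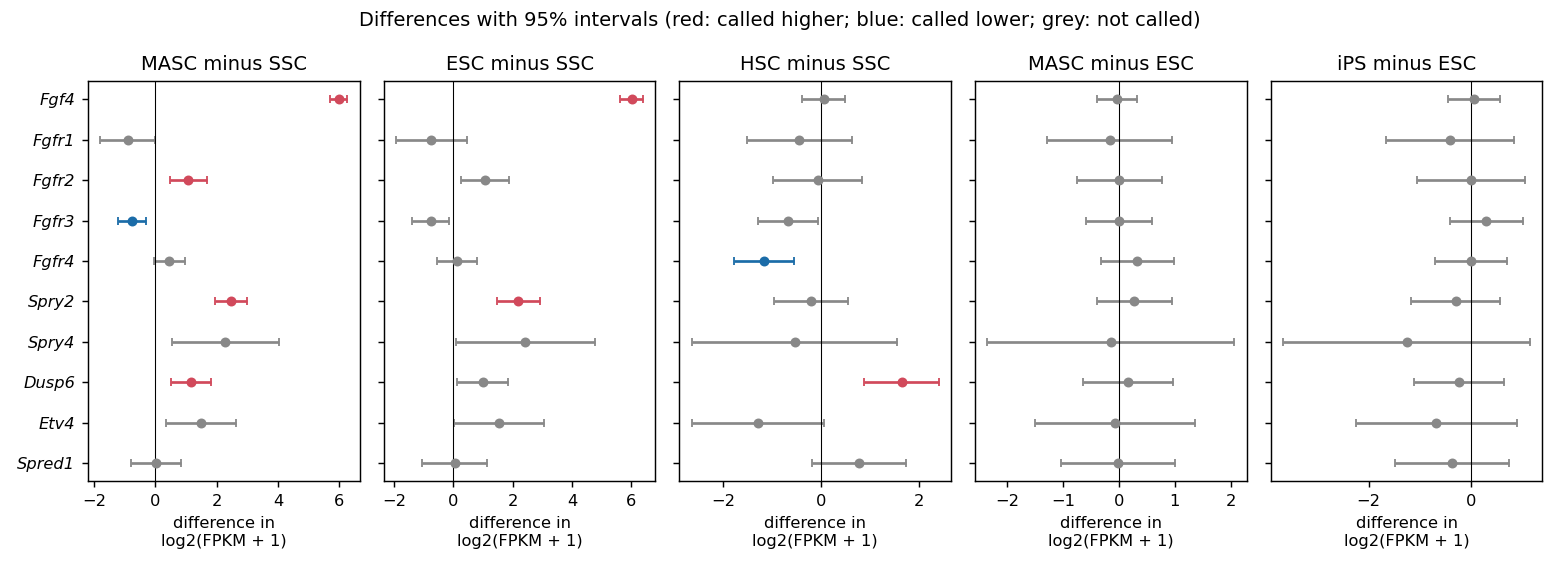
Differences in log2(FPKM + 1) with 95% intervals (horizontal axis) for the 10 genes in each comparison, from the limma fits. Fgf4 and Spry2 are higher in MASCs and in ESCs than in SSCs, Dusp6 is higher and Fgfr4 lower in HSC cultures than in SSCs, and no gene is called in MASCs or iPS cells against ESCs.

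Fgfr1 also differed between cell types in which transcripts were present. Of its 3 RefSeq transcripts, NM_010206 (5025 bases) was at 23.1, 20.1, 44.9 and 29.0 FPKM in SSC.1 to SSC.4, and at 17.2, 11.7, 9.43, 8.02, 9.95 and 10.4 FPKM in MASC.1 to MASC.6. In HSC.1, HSC.2 and MEF it was at 0.0013, 0.013 and 0.0087 FPKM. The transcript NM_001079909 (4758 bases) had the reverse pattern, at 25.2, 41.5 and 59.1 FPKM in HSC.1, HSC.2 and MEF. It was at 7.13, 0.232, 11.3 and 2.33 FPKM in SSC.1 to SSC.4, and at 17.1, 8.10, 2.99, 2.34, 0.743 and 4.69 FPKM in MASC.1 to MASC.6. ESC.1 and ESC.2 had 6.74 and 3.45 FPKM of it, and iPS.1 and iPS.2 had 0.582 and 1.21 FPKM. Its share of Fgfr1 was therefore 59.5% to 70.8% in HSC cultures and MEF and 0.715% to 32.0% in the stem cell lines, ranges that did not overlap. Among the lines grown on fibroblasts, the highest shares were in MASC.1 (32.0%), MASC.6 (21.0%), ESC.2 (19.6%) and MASC.2 (19.6%), and the lowest was in SSC.2 (0.715%). MASC.1 also had the most fibroblast marker RNA outside MEF, at 2244 FPKM. SSC.3, with a marker sum of 1692 FPKM, had a share of 12.5%. MASC.6 and ESC.2, with higher shares, had sums of 178 and 139 FPKM. The part of feeder RNA in these shares was not tested.

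NM_010206 is 267 bases longer than NM_001079909 and 6 bases longer than NM_001079908. The tables give lengths and no exons, but the GENCODE vM1 annotation of mm9 has an exon of exactly 267 coding bases in Fgfr1, at chr8:26665980-26666246 on the forward strand, present in 2 of its 7 coding transcripts. It is known to encode the first immunoglobulin-like domain of the receptor, the one that the shorter receptor form lacks. It is shown in capitals with the splice site bases on either side in lower case.
Fgfr1 exon of 267 bases: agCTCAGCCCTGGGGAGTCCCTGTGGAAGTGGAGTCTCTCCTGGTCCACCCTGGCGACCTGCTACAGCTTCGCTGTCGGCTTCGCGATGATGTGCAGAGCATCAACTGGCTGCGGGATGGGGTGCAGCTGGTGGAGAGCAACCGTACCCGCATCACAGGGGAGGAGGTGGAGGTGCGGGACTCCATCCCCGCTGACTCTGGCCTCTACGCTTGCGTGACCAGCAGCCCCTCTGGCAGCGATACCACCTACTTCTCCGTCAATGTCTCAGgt

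The next coding exon, chr8:26668203-26668292, has an annotated alternative end 6 bases earlier. These 6 bases are in capitals here, and match the difference in length between NM_010206 and NM_001079908.
Fgfr1 exon with the alternative end: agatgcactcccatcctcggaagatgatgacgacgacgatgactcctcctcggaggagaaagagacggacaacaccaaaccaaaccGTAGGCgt

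The division of reads among transcripts of 1 gene is an estimate by Cufflinks, so the summed level is firmer than each share. Summed over transcripts, Fgfr1 was at 32.5 to 90.4 FPKM in SSCs, 18.3 to 53.3 in MASCs, 36.04 and 17.6 in ESCs, 17.2 and 27.4 in iPS lines, 38.5 and 58.7 in HSC cultures and 99.2 in MEF. The difference between MASCs and SSCs on this scale was -0.98 (log2; adjusted p = 0.083).

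**Figure D4:**
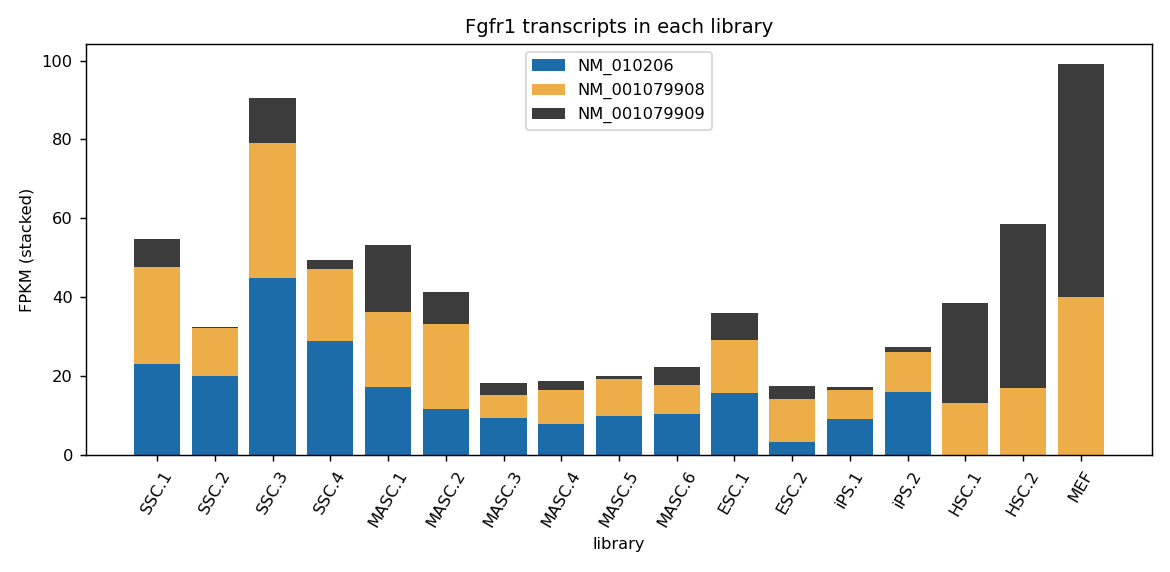
FPKM of the 3 Fgfr1 transcripts, stacked, in each of the 17 libraries. NM_010206 (blue) is near 0 in HSC.1, HSC.2 and MEF, where NM_001079909 (dark) makes up 59.5% to 70.8% of the gene, against at most 32.0% in the SSC, MASC, ESC and iPS lines.

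ESCs and SSCs were compared in the same fit. ESCs were higher in 2 of the 10 genes, Fgf4 by 6.01 ± 0.17 (log2, SE; adjusted p = 6.3e-08) and Spry2 by 2.19 ± 0.32 (adjusted p = 0.0011), and lower in none. Over all transcripts, 7.67% were higher and 13.8% were lower. Unadjusted, 7 of the 10 genes had a p under 0.05, against 32.4% of all transcripts. Dusp6 was at 24.7 and 44.7 FPKM in ESC.1 and ESC.2, above each SSC line, and differed by 1.00 ± 0.38 (adjusted p = 0.099). Without the fibroblast-rich libraries, ESC.1 among them, it was called (1.64, adjusted p = 0.047), and it was 1.41 (adjusted p = 0.088) without ESC.1 and 0.58 (adjusted p = 0.56) without ESC.2. Etv4 was at 53.1 and 69.0 FPKM and Spry4 at 10.9 and 41.9 FPKM in ESC.1 and ESC.2. Without SSC.2 both were called, Etv4 at 2.08 (adjusted p = 0.016) and Spry4 at 3.24 (adjusted p = 0.016). This comparison and the one before share the SSC lines.

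Against ESCs, no difference was called in MASCs. Of all transcripts 0.00306% were higher and 0.0276% lower, and none of the 10 genes had an unadjusted p under 0.05, as did 2.92% of all transcripts. The difference in Fgf4 was -0.04 ± 0.16 (log2, SE; 95% interval -0.40 to 0.32). With 2 ESC lines the intervals of other genes stayed wide, as in Spry4, where it ran from -2.35 to 2.07. In iPS cells against ESCs, in a fit over all 17 libraries, none of the 10 genes was called, against 0.196% of transcripts called higher and 0.113% lower. None had an unadjusted p under 0.05, against 8.03% of all transcripts. Fgf4 differed there by 0.06 ± 0.23 (95% interval -0.45 to 0.56). Spry4 was at 8.45 and 8.37 FPKM in iPS.1 and iPS.2, below both ESC lines, with a difference of -1.26 ± 1.10, and Etv4 was at 34.1 and 41.0 FPKM, also below both, with a difference of -0.68 ± 0.72.

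Between HSC cultures and SSCs, the called genes were Dusp6, which was also called higher in MASCs, and Fgfr4. Dusp6 was at 53.5 and 51.7 FPKM in HSC.1 and HSC.2, the highest of all libraries, and the difference was 1.64 ± 0.35 (log2, SE; adjusted p = 0.0030). Fgfr4 was at 0.0104 and 0.131 FPKM in HSC.1 and HSC.2 and at 0.0136 FPKM in MEF, below every stem cell line, and the difference was -1.16 ± 0.28 (adjusted p = 0.0069). Fgfr4 was no longer called without HSC.1 (-1.08, adjusted p = 0.055) or without the fibroblast-rich libraries (-1.32, adjusted p = 0.074), and with strain as a block neither gene was (Dusp6 1.26 and adjusted p = 0.10, Fgfr4 -1.06 and adjusted p = 0.12). Thus 1 of the 10 genes was higher and 1 lower, against 12.7% and 20.7% of all transcripts. Etv4 was at 8.61 and 6.71 FPKM, Spry4 at 1.32 and 2.63 FPKM and Spry2 at 5.60 and 12.4 FPKM in HSC.1 and HSC.2, low levels beside a high Dusp6. Spred1 was at 30.6 and 29.2 FPKM there, with a difference of 0.77 ± 0.44 (adjusted p = 0.21). The mast cell protease gene Cpa3 was at 10252 and 6795 FPKM in these cultures.

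The order of the cell types by mean level differed from gene to gene. Fgf4 ran from iPS cells (70.2 ± 23.6 FPKM, SD, n = 2) through ESCs (65.9 ± 9.0, n = 2) and MASCs (64.7 ± 10.4, n = 6), whose ranges overlapped, to HSC cultures (0.0679), SSCs (0.0326) and MEF (0.0213), which also overlapped with their neighbours. Spry2 ran from MASCs (59.5 ± 9.9 FPKM, n = 6), within whose range MEF lay, through ESCs (48.4) and iPS cells (39.1), which did not overlap with each other, to SSCs (10.6 ± 5.0, n = 4) and HSC cultures (9.004), which did. Dusp6 ran from HSC cultures (52.6 FPKM) to MASCs (38.9 ± 11.4), ESCs (34.7), MEF (30.3), iPS cells (28.1) and SSCs (16.6 ± 4.5), and the steps from HSC cultures to MASCs, from MEF to iPS cells and from iPS cells to SSCs did not overlap. Etv4 ran from ESCs (61.0 FPKM) and MASCs (59.9 ± 16.4) to iPS cells (37.6) and SSCs (27.3 ± 25.0), all overlapping with their neighbours, and then to HSC cultures (7.66) and MEF (6.67). Spry4 was in the same order at the top, ESCs (26.4), MASCs (22.04 ± 10.2), iPS cells (8.41) and SSCs (6.65 ± 10.3). For Spred1 the order was HSC cultures (29.9 FPKM), SSCs (19.4 ± 12.6), MASCs (18.1 ± 5.5), ESCs (17.99), iPS cells (13.4) and MEF (9.52), with overlap at every step but the last. Fgfr1 was highest in MEF (40.2 FPKM) and then in SSCs (22.3 ± 9.4), Fgfr2 in MEF (3.37), Fgfr3 in SSCs (1.43 ± 0.55) and Fgfr4 in MASCs (2.43 ± 1.13).

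Strain was the 1 labelled property that varied among lines of a cell type. The difference between MASCs and SSCs was computed within Oct4-GFP (2 lines of each) and within 129mix (2 MASC lines and 1 SSC line), and the difference of the differences was tested in limma. With 1 SSC line in 129mix and 4 residual degrees of freedom, that line was assumed to vary like the other groups. It was called for none of the 10 genes, against 0.744% of all transcripts, and 2 of 10 had an unadjusted p under 0.05, near the 11.8% of all transcripts that did. These were Dusp6, at 0.63 in Oct4-GFP and 2.05 in 129mix (unadjusted p = 0.032, adjusted p = 0.36), and Fgfr2, at 1.52 and 0.27 (unadjusted p = 0.041, adjusted p = 0.39). Spry4 differed by 0.72 in Oct4-GFP, which includes SSC.2, and by 4.03 in 129mix, and Etv4 by 0.86 and 2.98, with adjusted p of 0.67 and 0.71 for the difference of the differences. Fgf4 differed by 5.74 and 6.18, and Spry2 by 2.70 and 3.01.

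In MASCs, the named ligands below were all at lower levels than Fgf4. In SSCs, where Fgf4 was nearly absent, Fgf2, Fgf8, Fgf17 and Fgf22 were above it in every line. Fgf5 and Fgf15 were not above it in every SSC line. Of 17 ligand genes, 2 were higher in MASCs than in SSCs and 3 were lower, with a median difference of 0.01. These counts were near the shares over all transcripts, 11.4% higher and 19.5% lower. Fgf17, a ligand of the Fgf8 group, was higher, with 4.51 to 10.3 FPKM in MASCs and 0.110 to 0.455 FPKM in SSCs, a difference of 2.73 ± 0.29 (log2, SE; adjusted p = 8.7e-05). Fgf15 was higher by 1.32 ± 0.28 (adjusted p = 0.0052), at 0.722 to 4.16 FPKM in MASCs, and Fgf22 was lower by -1.27 ± 0.19 (adjusted p = 7.4e-04), at 1.64 to 3.52 FPKM in SSCs. Fgf5, the marker of the primed epiblast, was at 0.215 to 3.89 FPKM in MASCs and at most 0.222 FPKM in SSCs, with a difference of 0.88 ± 0.35 (adjusted p = 0.085). Fgf2, whose product was in the SSC medium, was itself at 0.263 to 0.680 FPKM in SSCs and 0.148 to 1.06 FPKM in MASCs, a difference of -0.08 ± 0.16 (adjusted p = 0.79), and Fgf8 differed by -0.19 ± 0.22 (adjusted p = 0.60).

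Co-receptors and heparan sulphate enzymes, which shape how ligands reach the receptors, held genes called in both directions. Beside both lists, the shares over all transcripts were 11.4% higher and 19.5% lower. Of 17 co-receptor and proteoglycan genes, 3 were higher and 3 lower, with a median difference of 0.12. Fgfbp1, which releases FGFs from the matrix, was at 17.1 to 41.9 FPKM in MASCs and at most 0.0911 FPKM in SSCs (4.91 ± 0.25, adjusted p = 1.1e-06). The syndecan gene Sdc4 was at 325 to 538 FPKM in SSCs and 30.1 to 67.2 FPKM in MASCs (-3.40 ± 0.25, adjusted p = 8.8e-06), and Fgfrl1, a receptor without a kinase domain, was lower by -1.38 ± 0.31 (adjusted p = 0.0070). Of 11 heparan sulphate enzymes, 2 were higher and 4 lower, with a median of -0.07. The higher ones were the 6-O-endosulphatases Sulf1 (1.31 ± 0.32, adjusted p = 0.012) and Sulf2 (1.25 ± 0.18, adjusted p = 5.4e-04), which trim heparan sulphate outside the cell. The epimerase Glce (-2.23 ± 0.12, adjusted p = 1.5e-06) and the sulphotransferase Ndst2 (-1.92 ± 0.19, adjusted p = 6.3e-05), which build it, were lower.

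Between receptor and Erk, 6 of 25 adaptor and cascade genes were higher and 6 lower, with a median of -0.14. Beside each list in this paragraph, the shares over all transcripts were 11.4% higher and 19.5% lower. The docking protein gene Gab1 was higher, at 37.7 to 69.2 FPKM in MASCs and 11.4 to 15.3 FPKM in SSCs (2.12 ± 0.17, adjusted p = 1.4e-05), as was Hras (1.36 ± 0.20, adjusted p = 7.1e-04). Nf1, which inactivates Ras (-1.78 ± 0.11, adjusted p = 3.3e-06), and the scaffold gene Ksr1 (-1.52 ± 0.23, adjusted p = 7.4e-04) were lower. Of 18 further feedback inhibitors and Erk targets, 5 were higher and 2 lower, with a median of 0.27. Myc (2.81 ± 0.59, adjusted p = 0.0051), the phosphatase gene Dusp4 (2.77 ± 0.34, adjusted p = 2.1e-04) and the ETS factor Etv1 (2.15 ± 0.15, adjusted p = 5.8e-06) were higher, and so was Etv5 (1.72 ± 0.55, adjusted p = 0.040). Myc is given here by its transcript NM_001177352, at 0.0034 FPKM in SSC.3 and 2.42 to 2.50 FPKM in the other SSC lines. Leaving out 1 of the 10 lines in turn gave 2.37 to 3.09 for it. Levels of another Myc transcript, NM_001177353, are not given here. The immediate early gene Egr1 was lower (-2.45 ± 0.79, adjusted p = 0.040), opposite in direction to this Myc transcript, NM_001177352. Egr1 was at 43.4 to 119 FPKM in SSCs and 5.18 to 78.8 FPKM in MASCs. The calls of Etv5 and Egr1 were weak: leaving out 1 of the 10 lines in turn ended that of Etv5 in 9 cases, all but SSC.2 (2.35 and adjusted p = 0.0014 without SSC.2), and that of Egr1 in 8. Spry1 was at 6.39 to 9.79 FPKM in SSCs and 7.62 to 12.1 FPKM in MASCs (0.36 ± 0.16, adjusted p = 0.12), and Dusp9 differed by 0.18 ± 0.66 (adjusted p = 0.93). A further list held 11 lineage genes, chosen as followers of FGF-Erk signalling in early embryo cells. Whether that signalling drives them in these lines was not tested. Of the 11 genes, 5 were higher and none lower, with a median of 1.21. They were led by Lefty1 (5.21 ± 0.45, adjusted p = 2.7e-05), Dnmt3b (4.02 ± 0.35, adjusted p = 2.7e-05), Otx2 (2.39 ± 0.36, adjusted p = 7.0e-04) and the mesoderm gene T (1.43 ± 0.32, adjusted p = 0.0077).

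The genes with the most similar pattern to each member were found by Pearson's r of log2(FPKM + 1) over the 17 libraries, among 20119 transcripts with at least 1 FPKM in 2 libraries. These r describe libraries that share cell types, strains and media. The closest to Fgf4 were 2410007B07Rik, 1700019D03Rik and Pipox (r of 0.998, 0.997 and 0.996), which were on and off in the same libraries. Etv4 was closest to Etv5 (0.950), then Dhx32 (0.934) and Strap (0.928). Dusp6 was closest to Myc (0.933, transcript NM_001177353), then Shc1 (0.902) and Pmm2 (0.898). Spry4 was closest to Strap (0.907), Ccnc (0.897) and Ap1s2 (0.891), and Spry2 to Snhg12 (0.963), Ddit4l (0.962) and Tceal8 (0.956). Spred1 was closest to Cdc14a (0.933), 0610030E20Rik (0.859) and Recql (0.858). For the receptors, the leading genes were Psap (0.908), Sidt2 (0.908) and Ehd2 (0.903) for Fgfr1, Abcd4 (0.912), D8Ertd82e (0.909) and Hspb8 (0.897) for Fgfr2, 1700012D14Rik (0.849), Tfr2 (0.844) and 1810010H24Rik (0.839) for Fgfr3, and Arc (0.938), Dact2 (0.932) and 1700030C10Rik (0.924) for Fgfr4. Among the 10 genes themselves, r was highest between Spry4 and Etv4 (0.844) and lowest between Fgf4 and Fgfr1 (-0.663).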

How the data were processed

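RNA-seq of 17 libraries was used, 1 deposited isoform table each. Per the methods and processing notes, the authors made libraries with the TruSeq RNA kit, aligned reads to mm9 with TopHat2 (2.0.11), left out duplicate and multi-mapping reads, and computed FPKM with Cufflinks (version not given in the sources used here) with upper-quartile and GC normalization. The deposited FPKM and their bounds were used as they are, and the coverage signal deposited beside them, in reads per base, only for depth. RefSeq transcripts listed once were kept.

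limma (3.58.1, R 4.3.3) was fitted to log2(FPKM + 1) over all transcripts, without a filter, with 1 mean per cell type, over the 12 SSC, MASC and ESC lines, or over all 17 libraries for iPS and HSC comparisons. Of the pathway lists, the called genes among the 4 largest differences between MASCs and SSCs are named, with Fgf2, Fgf5, Fgf8, Spry1, Etv5, Dusp4 and Dusp9 whatever their values, and for each member the 3 genes with the highest r. The members, lists and tests were chosen with earlier results of these data known. The alternatives were a pseudocount of 0.1, a filter (1 FPKM in 2 libraries), quantile normalization, trended and robust eBayes, the fit over all 17 libraries, other call rules, transcripts summed per gene, replicate or strain blocks, and single lines left out. Leaving out the 5 libraries with the most fibroblast marker RNA was added after seeing the data.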

Additional observations from a re-analysis of the deposited data

Results flagged for a closer look

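Fgf4 in SSC.3 was the 1 value of a member that lay far from the rest of its group, among the 4 SSC and 6 MASC lines on the log2(FPKM + 1) scale. Its gap to the next SSC line was 0.907 of the range of the group, above the 95% critical value of Dixon's test for 4 values. The level was 0.101 FPKM, against 0.0042 to 0.0128 FPKM in the other SSC lines, so the range itself is small beside the levels in MASCs. SSC.3 was the only C57Bl/6J SSC line and had the highest fibroblast marker sum of the SSC lines, and their part in this value was not tested. In 20 groups of values (10 genes in 2 cell types), chance would flag about 1. The higher values of SSC.2 in Etv4, Spry4 and Spred1 did not pass this test.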

How the results depend on the processing

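Between MASCs and SSCs, 4 members were called higher and 1 lower. None (0) was called lower with a pseudocount of 0.1, quantile normalization, a required log2 difference of 1 or more, an unadjusted p under 0.05 with a log2 difference of at least 2, a strain block, or the 5 fibroblast-rich libraries left out, and 2 were higher with a strain block. With 1 line left out in turn, 4 to 6 were higher and 0 to 1 lower (0 without SSC.2). Between ESCs and SSCs, 1 was lower with transcripts summed, and 2 to 4 were higher (4 without SSC.2) with 1 line left out. Between HSC cultures and SSCs, 0 were higher and 0 lower under the unadjusted rule and the strain block, 0 were lower without the 5 libraries, and 2 were lower with transcripts summed. With 1 line left out, 1 to 2 were higher and 0 to 2 lower. Neither MASCs nor iPS cells had a member called against ESCs under any alternative. The share of all transcripts called was not taken under these alternatives or the replicate block below. These counts therefore cannot tell a change in the members from a change in how many transcripts a fit calls. The causes were not tested.

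Some small differences changed sign. Spred1 (MASCs against SSCs) was -0.15 with transcripts summed, -0.20 with a strain block, -0.33 without the 5 libraries and -0.21 to 0.40 with 1 line left out. Dusp9 was -0.21 without the 5 libraries and -0.20 to 0.77 with 1 line left out, and Fgf2 was 0.0064 with quantile normalization. Fgf4 in MASCs against ESCs was -0.17 to 0.10 with 1 line left out. In iPS cells against ESCs it was -0.075 with a strain block and -0.083 without the 5 libraries, and -0.29 to 0.40 with 1 line left out. Etv4 and Spry4 passed the threshold between MASCs and SSCs with a pseudocount of 0.1 (adjusted p of 0.048 and 0.042), the FPKM filter (0.023 and 0.022), trended and robust eBayes (0.049 for both), transcripts summed (0.044 and 0.045) and the fit over 17 libraries (0.028 for both). Spry4 also passed with quantile normalization (0.043), under the unadjusted rule and without MASC.1 (0.032). Where a fit left a cell type with 1 library, that library was assumed to vary like the others.

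The replicate numbers showed no steady pairing of the samples: of 12 same-numbered pairs, 5 had a correlation of deviations over 0.1 (range -0.36 to 0.41). In a cell type with 2 libraries the deviations mirror each other. The pairs are therefore not independent and cannot settle whether the numbers pair the samples. With a replicate block, 2 members were higher and 1 lower between MASCs and SSCs, 1 was lower between ESCs and SSCs, 2 were lower between HSC cultures and SSCs, and Spred1 was -0.036. Levels near 0 rest on few reads, and without counts no floor can be given for them.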
